A study of Mus musculus with 2 samples.

Results

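The genes of the Wnt pathway were read in mouse embryonic stem (ES) cells of the line E14TG2a, kept in 2i/LIF, the culture that combines inhibitors of MEK and of GSK3 with the cytokine LIF and holds the cells in the ground state of naive pluripotency. The members are 54 genes named from the pathway's known parts: 15 for Wnt ligands and their secretion, 13 receptors, 9 of the cytoplasmic cascade, 7 Tcf/Lef factors and co-activators, and 10 target and feedback genes. All 54 were found, among the 28592 genes of the table. The series has 1 group of 2 samples, both labelled E14TG2 and ground state, with no untreated, differentiated or otherwise altered arm, so levels are described within this 1 state and no test between conditions exists. Strand-specific libraries were made from total RNA without ribosomal RNA, and the deposited unit is FPKM, the fragments of a gene relative to its transcript length and to all mapped fragments, which is per length and so allows levels of different genes to be compared within a library. Nothing in the labels says that the replicates were separate cultures, and the spread between them may be technical. In bulk RNA, fewer cells that express a gene and less RNA per cell cannot be told apart.

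Wnt proteins are secreted lipid-modified ligands that bind Frizzled receptors together with the co-receptors Lrp5 or Lrp6. Without a ligand, a destruction complex of Axin, Apc, casein kinase 1 and GSK3 marks beta-catenin for degradation, and with a ligand beta-catenin escapes, enters the nucleus and converts Tcf/Lef factors from repressors to activators. In mouse ES cells the GSK3 inhibitor of 2i acts below the receptor, on the destruction complex, and relief of repression by Tcf7l1 is known as the main route by which it sustains self-renewal.

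Levels are given as the FPKM in replicate 1 and replicate 2, or as mean ± SD (n = 2), and detected means an FPKM of 1 or more in each replicate. The columns summed to 946498 and 928174 FPKM, and read depth is unknown. All 10 ES cell markers were detected, led by Dppa5a at 7048 ± 107 and Pou5f1 at 976 ± 40.8. No primitive endoderm marker of 7 was detected (the highest were Pdgfra at 0.242 ± 0.0880 and Dab2 at 0.224 ± 0.257). Of the primed epiblast, mesoderm, neural and trophectoderm lists 3 of 7, 2 of 7, 1 of 6 and 4 of 7 genes were detected, with the highest values for Dnmt3b (21.6) and Zic2 (5.68), T (12.4) and Gsc (3.15), Nes (9.24) and the undetected Map2 (0.443), and Krt8 (14.9) and Tfap2c (8.60). The 12 fibroblast markers, of which only 2 were detected, differed between the libraries. Of the 12, 10 were higher in replicate 2, against 10541 of all 28592 genes, 8009 of which were at 0 in both. The summed FPKM of the 12 was 281 in replicate 1 and 302 in replicate 2. Vim (270 ± 12.6) and Fbln1 (19.13 ± 0.933) make up most of that sum, and the other 10, a split made after their values were seen, summed to 0.415 and 4.43, with 4 of them listed at 0 in replicate 1 and 1 in replicate 2.

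Expression was spread unevenly over the roles of the pathway. Of the 54 members 27 were detected, against 39.4% of all genes in the table. Another 4 reached 1 in a single replicate and 23 stayed below it in both. By role, 8 of 9 cascade genes, 8 of 13 receptors, 6 of 10 targets, 2 of 7 Tcf/Lef factors and co-activators, and 3 of 15 genes for ligands and secretion were detected. The place of the Tcf/Lef factors and co-activators depends on the limit: 4 of 7 were at 1 or more in replicate 2 alone and on the mean of replicates, and at a limit of 0.5 in both replicates they were 6 of 7, against 8 of 13 receptors and 6 of 10 targets. The median FPKM followed a similar order, at 18.7 for the cascade, 1.88 for receptors, 1.81 for targets, 1.11 for Tcf/Lef factors and co-activators and 0.0417 for ligands and secretion. Over all 54 it was 1.20 (1.17 in replicate 1 and 1.36 in replicate 2), and over all genes 0.233. A level of at least 10 in both replicates was reached by 14 members (21.8% of all genes), and of at least 100 by 2 (3.61% of all genes). No member was listed at 0 in both replicates.

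**Figure D1:**
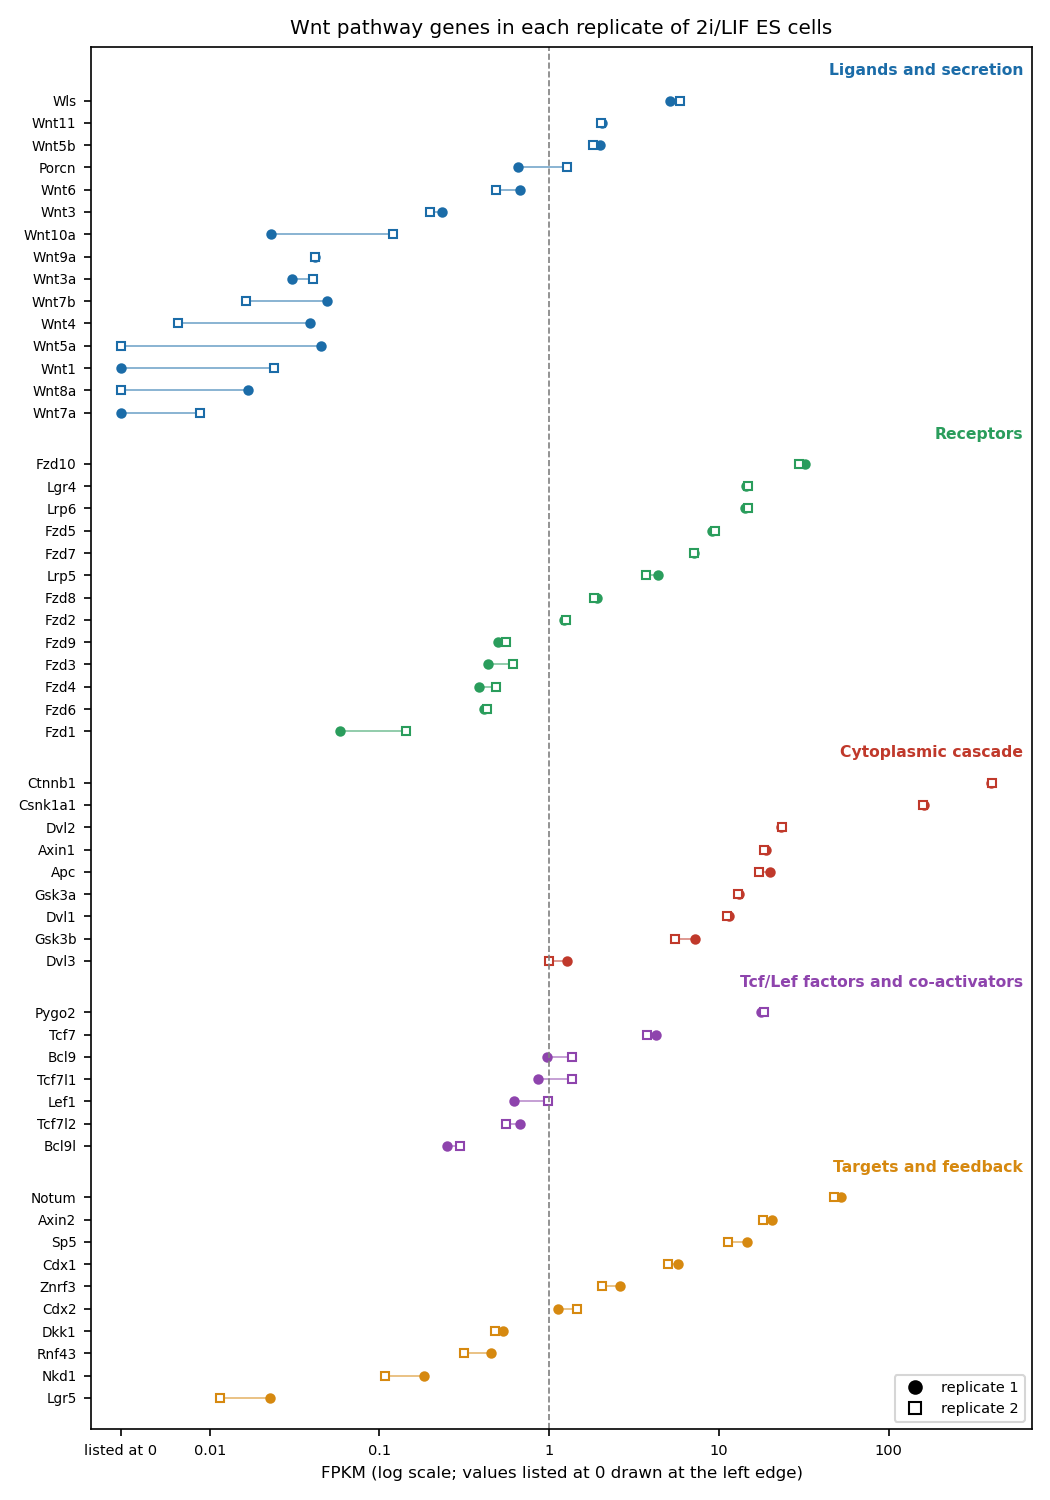
FPKM of each of the 54 members (log axis) in replicate 1 (filled circles) and replicate 2 (open squares), ordered by mean within each role; lines join the replicates and the dashed line marks the detection limit of 1. The cascade lies almost wholly right of the limit, from Dvl3 at 1.13 to Ctnnb1 at 405, whereas 11 of the 13 Wnt ligands lie left of it in both replicates.

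Ligands were the weakest part of the pathway. Of the 13 Wnt genes among the members only Wnt11 and Wnt5b, ligands best known for signalling without beta-catenin, were detected. Wnt11 (ENSMUSG00000015957.10, chromosome 7, 98835084 to 98854747) had FPKM values of 2.04 and 2.03. Wnt5b (chromosome 6, 119432531 to 119544824) had 1.99 and 1.81. The lower value of Wnt11 was above the higher value of Wnt5b, but by less than the spread of Wnt5b. The RefSeq span of Wnt5b overlaps that of Fbxl14 over 4219 bases, and Fbxl14 was at 24.1 and 23.4. Since the use of strand in the quantification is not given, the level of Wnt5b is uncertain.

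The other ligands were lower still. Wnt6 was at 0.675 and 0.489, and Wnt3, a ligand of the canonical pathway needed for gastrulation, at 0.235 and 0.199. Wnt6 and Wnt3 were separated in both libraries and both were below detection. Wnt10a was at 0.0230 in replicate 1 and 0.121 in replicate 2, so its place in the order differs by library. The remaining 8 ligands (Wnt1, Wnt3a, Wnt4, Wnt5a, Wnt7a, Wnt7b, Wnt8a and Wnt9a) were below 0.1 in both replicates, with means from 0.00437 for Wnt7a to 0.0417 for Wnt9a. Wnt3a, the ligand most often added to ES cultures, was at 0.0305 and 0.0406. Wnt1 and Wnt7a were listed at 0 in replicate 1, and Wnt5a and Wnt8a in replicate 2.

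Some of the lowest values stood in ratios near those of small whole numbers. Of 10 members with a mean FPKM under 0.1, 6 were above 0 in both replicates, and in 4 of these the ratio between the replicates was, within a tolerance of 0.01 on the log2 scale, a quotient of integers no larger than 8: 1 to 1 for Wnt9a, 3 to 4 for Wnt3a, 3 to 1 for Wnt7b and 6 to 1 for Wnt4. Lgr5 and Wnt10a did not meet this rule. How often other low genes of the table meet it was not counted, so the 4 cannot be called particular to these members. The number of fragments behind these values is not known. Of neighbours in order only Wnt9a was above the next gene, Wnt3a, without overlap. The 6 Wnt genes outside the member list (Wnt2, Wnt2b, Wnt8b, Wnt9b, Wnt10b and Wnt16) were no higher than 0.0583 in mean, the value of Wnt16, followed by Wnt10b at 0.0578 and Wnt2b at 0.0451. Over all 19 Wnt genes, 2 were detected and the summed FPKM was 5.42 in replicate 1 and 4.90 in replicate 2, less than that of the single receptor gene Fzd5.

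Some Wnt genes lie in pairs on the chromosome, and in none of the 4 pairs closer than 100000 bases was either gene detected. Few Wnt genes were detected at all, 2 of 19 (10.5%, against 39.4% of all genes). A link between pairing and level was not tested. The pairs were Wnt6 with Wnt10a (6697 bases apart on chromosome 1), Wnt3a with Wnt9a (16098 bases, chromosome 11), Wnt10b with Wnt1 (11651 bases, chromosome 15) and Wnt9b with Wnt3, whose RefSeq spans overlap by 1098 bases on chromosome 11. Within the last pair Wnt9b was listed at 0 in both replicates.

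Both genes of ligand export stood above most ligands. Wls, the carrier that takes Wnt proteins to the cell surface, was at 5.16 and 5.91 and was the highest gene of this role. Porcn, the enzyme that attaches the lipid to Wnt proteins, was at 0.657 in replicate 1 and 1.27 in replicate 2. It thus crossed the detection limit in replicate 2 alone.

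Receptors were present, and 1 Frizzled led the family. Fzd10 (ENSMUSG00000081683.5, chromosome 5, 128601106 to 128604093) was at 32.1 and 29.6, the fourth highest of all 54 members and at percentile 89.0 of all genes in the table. It accounted for 58.8% ± 2.04 of the summed Frizzled FPKM. Fzd5 followed at 9.15 and 9.51 (17.8% ± 0.922 of the sum) and Fzd7, a Frizzled much studied in ES cells, at 7.09 and 7.13 (13.6% ± 0.374). Fzd10 exceeded Fzd5 by 3.51 times in replicate 1 and 3.11 times in replicate 2. Fzd5 exceeded Fzd7 by 1.29 and 1.33 times, so this order held in both libraries.

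The other Frizzled genes were near or under the limit. Fzd8 at 1.93 and 1.83 and Fzd2 at 1.22 and 1.26 were detected. Fzd9, Fzd3, Fzd4 and Fzd6 had means of 0.529, 0.522, 0.436 and 0.422, and neighbours in this order overlapped between replicates. Fzd1 was lowest, at 0.0586 and 0.143. Thus 5 of the 10 Frizzled genes were detected (39.4% of all genes were). Fzd4 shares 338 bases with Tmem135, which was at 9.14 and 9.94.

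The co-receptors were expressed in an unequal pair. Lrp6 was at 14.2 and 14.8 and Lrp5 at 4.39 and 3.70, so that Lrp6 was 3.22 and 3.99 times as high. Lgr4, the receptor for R-spondins, which strengthen Wnt signals by removing the ligases that clear Frizzled, was at 14.4 and 14.8 and overlapped with Lrp6.

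**Figure D2:**
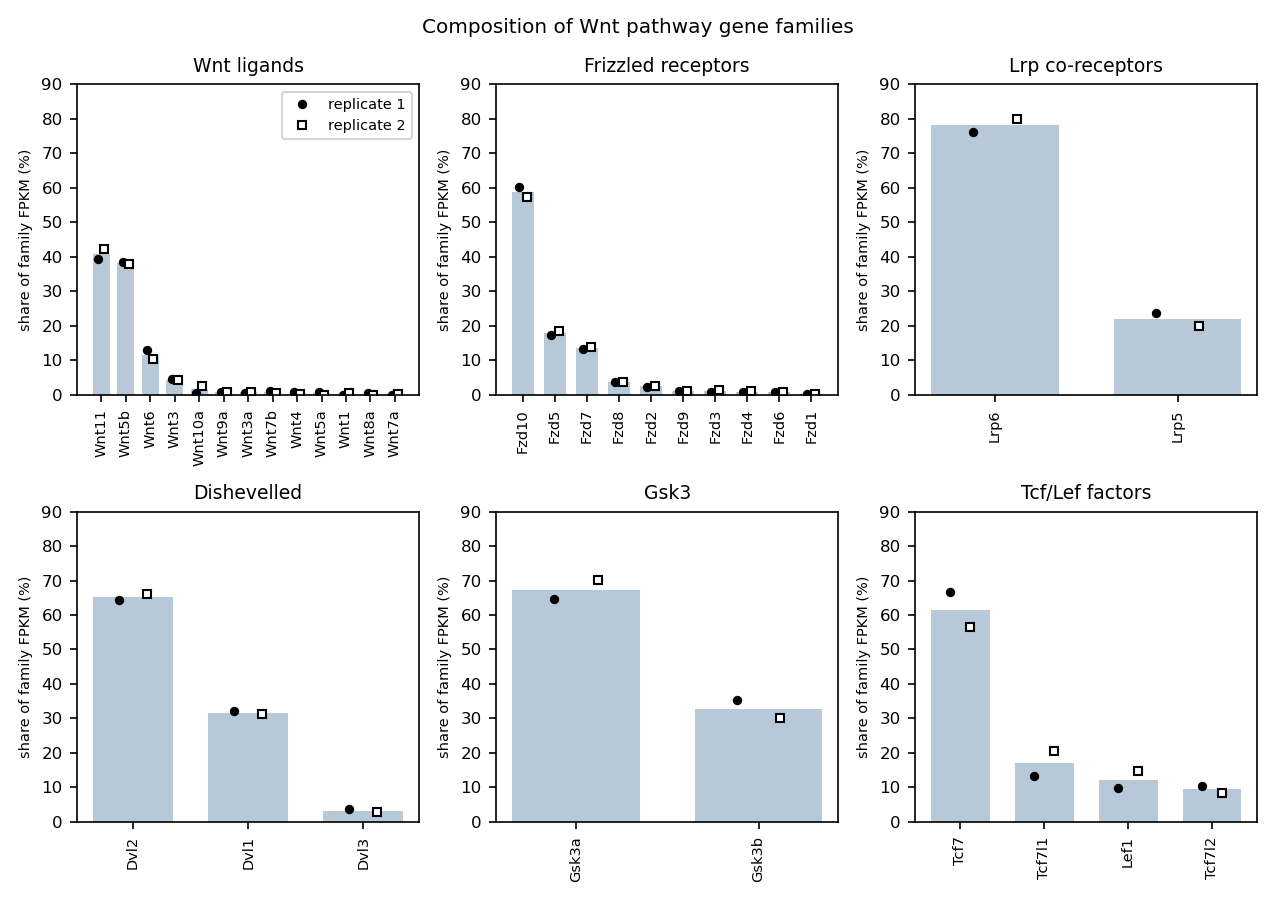
Share of each gene in the summed FPKM of its family (percent), for 6 families; bars are the mean of 2 replicates, and symbols are the single replicates. Fzd10 holds 58.8% of the Frizzled sum, Wnt11 and Wnt5b together most of the low Wnt sum, and Tcf7 61.5% of the Tcf/Lef sum, with the widest gap between replicates in the last family.

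The cascade held the most abundant transcripts of the pathway. Ctnnb1 (ENSMUSG00000006932.15, chromosome 9, 120933400 to 120960507), which encodes beta-catenin, was at 403 and 408, percentile 99.0 of all genes. Csnk1a1, the casein kinase that places the first phosphate on beta-catenin, was at 162.2 and 158.8. These were the only members at 100 or more, and each was clear of the next gene in both replicates. Beta-catenin also links E-cadherin to the cell cortex, and its junction partners Ctnna1, Cdh1 and Jup were at 91.5 ± 0.668, 55.1 ± 0.644 and 29.3 ± 0.211.

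The scaffolds of the destruction complex were far below beta-catenin. Apc was at 20.1 and 17.3 and Axin1 at 18.9 and 18.5. The FPKM of Ctnnb1 was 20.03 and 23.6 times that of Apc and 21.3 and 22.0 times that of Axin1. Axin1 and its target-gene relative Axin2, at 20.4 and 18.3, had nearly equal shares, with Axin2 at 50.8% ± 1.57 of the pair. Apc, Axin1 and Axin2 overlapped between replicates, so their order is not resolved.

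Among the kinases that the 2i inhibitor is aimed at, Gsk3a was at 13.2 and 12.9 and Gsk3b at 7.24 and 5.53. Gsk3a was 1.83 and 2.34 times as high as Gsk3b, and their values did not overlap. Gsk3a shares 1542 bases with the lncRNA 9130221H12Rik, which was at 2.22 and 2.84. Of the Dishevelled genes, which carry the signal from Frizzled, Dvl2 was at 23.1 and 23.5, Dvl1 at 11.5 and 11.1 and Dvl3 at 1.28 and 0.993. Dvl2 held 65.2% ± 1.20 of the Dishevelled sum. Dvl3 was the sole cascade gene not detected, missing the limit in replicate 2 alone, and it overlaps the lncRNA Gm16618 (1.25 and 0.974) over 832 bases.

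Tcf/Lef transcripts were low next to the cascade. Tcf7 (ENSMUSG00000000782.14, chromosome 11, 52246527 to 52283383), which acts mostly as an activator in ES cells, was at 4.28 and 3.75 and was the only one of the 4 that was detected. It made up 61.5% ± 7.12 of the Tcf/Lef sum. The RefSeq span of Tcf7 shares 332 bases with that of Skp1, for which no level was found under that symbol. Tcf7l1, the repressor, was at 0.861 in replicate 1 and 1.36 in replicate 2, Lef1 at 0.625 and 0.982, and Tcf7l2 at 0.669 and 0.557. Lef1 overlapped both Tcf7l1 and Tcf7l2, which did not overlap each other, and Tcf7 was above each of them in both replicates, by 4.98 and 2.77 times over Tcf7l1. Of 6 genes known to be repressed by Tcf7l1 in ES cells all were detected (39.4% of all genes were), and 4 of them (Pou5f1, Nanog, Esrrb and Tfcp2l1) are also among the ES cell markers above. The 6 were led by Pou5f1 at 976 ± 40.8, Nanog at 268 ± 1.44 and Esrrb at 94.6 ± 5.39. With ES cell markers in the list, its detection cannot show whether repression by Tcf7l1 was relieved, which was not tested.

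The co-activators that attach to beta-catenin differed widely. Pygo2, the reader of methylated histone H3 in the Wnt enhanceosome, was at 17.7 and 18.4. The adaptors that connect it to beta-catenin were much lower, with Bcl9 at 0.976 and 1.36 and Bcl9l at 0.250 and 0.300. Pygo2 was 18.1 and 13.5 times as high as Bcl9, and 70.8 and 61.2 times as high as Bcl9l. Its relative Pygo1, named after its value was seen, was at 0.114 and 0.128.

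The target genes ran in a graded series from a mean of 49.9 to 0.0171. Notum (ENSMUSG00000042988.9, chromosome 11, 120653788 to 120661193), an extracellular enzyme that strips the lipid from Wnt proteins, was at 52.1 and 47.7, the third highest member. Axin2 (chromosome 11, 108917828 to 108950783), the most used readout of beta-catenin activity, was at 20.4 and 18.3, and Sp5 (chromosome 2, 70474923 to 70477726), a zinc-finger repressor induced by Wnt, at 14.6 and 11.3. Notum exceeded Axin2 by 2.55 and 2.60 times. The caudal homeobox genes followed, with Cdx1 at 5.71 and 4.99 and Cdx2 at 1.13 and 1.46.

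Feedback inhibitors at the receptor were uneven too. Znrf3, a ubiquitin ligase that clears Frizzled from the surface, was at 2.60 and 2.04, and its partner Rnf43 at 0.455 and 0.316, below detection. Znrf3 was 5.71 and 6.45 times as high as Rnf43. The secreted Lrp antagonist Dkk1 was at 0.538 and 0.479 and the Dishevelled inhibitor Nkd1 at 0.183 and 0.107. Lgr5, the intestinal stem cell marker and R-spondin receptor, was at 0.0226 and 0.0116, against 14.4 and 14.8 for Lgr4. Of the 10 targets 6 were therefore detected, and the 3 at 10 or more were Notum, Axin2 and Sp5.

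Promoters were examined for the Tcf/Lef recognition letters, because the targets differ so much in level. RefSeq windows (GRCm38.p6, 250 bases before to 50 after an annotated start) were at hand for 35 of the 54 members, 6 of them targets. The motifs searched were CTTTG followed by AA, AT, TA or TT, on both strands. The letters were found for 2 of the 6 targets, Sp5 and Dkk1, and for 9 of the 35 members (25.7%), against 18.9% of the 27025 genes with a window. The share over single windows was 19.1% for members and 16.9% for all. For the shorter core CTTTG the order was the opposite, with 17 of 35 members (48.6%) against 57.4% of all genes, and 2 of 6 targets. The 250 bases before the start are shown for 4 genes, to set a high and a low target with the letters beside a high target without them and the leading ligand, each 5′ to 3′ on the gene's strand, with matches in capitals (on the antisense strand, their complement).
Sp5, chr2:70474673-70474922, plus strand: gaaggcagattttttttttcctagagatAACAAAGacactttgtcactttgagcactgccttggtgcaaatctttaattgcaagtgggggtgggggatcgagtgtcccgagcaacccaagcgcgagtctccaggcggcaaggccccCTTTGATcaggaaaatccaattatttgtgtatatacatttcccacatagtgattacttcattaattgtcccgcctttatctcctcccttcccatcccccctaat
Dkk1, chr19:30549497-30549746, minus strand: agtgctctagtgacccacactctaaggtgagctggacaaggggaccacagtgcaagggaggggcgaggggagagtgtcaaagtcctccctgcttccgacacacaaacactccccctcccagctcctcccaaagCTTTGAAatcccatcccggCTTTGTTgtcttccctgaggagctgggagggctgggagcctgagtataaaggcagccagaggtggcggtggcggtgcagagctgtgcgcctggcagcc
Axin2, chr11:108920099-108920348, plus strand: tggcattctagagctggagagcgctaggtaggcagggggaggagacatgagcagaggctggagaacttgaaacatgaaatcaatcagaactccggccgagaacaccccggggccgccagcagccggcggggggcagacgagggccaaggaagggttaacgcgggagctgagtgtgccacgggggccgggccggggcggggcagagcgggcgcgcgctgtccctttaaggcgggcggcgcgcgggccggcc
Wnt11, chr7:98834862-98835111, plus strand: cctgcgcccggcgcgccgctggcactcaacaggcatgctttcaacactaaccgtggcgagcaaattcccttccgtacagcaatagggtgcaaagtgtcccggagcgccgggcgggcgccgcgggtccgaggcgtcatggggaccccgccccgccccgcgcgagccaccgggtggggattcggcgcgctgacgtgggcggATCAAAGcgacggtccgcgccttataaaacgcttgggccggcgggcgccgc
In Sp5 the sense match CTTTGAT begins 104 bases before the start and an antisense CTTTGTT 222 bases before it. In Dkk1 a sense CTTTGAA begins at 117 bases, while the sense CTTTGTT lies at 98 bases. Wnt11 has an antisense CTTTGAT at 51 bases. The window of Axin2 belongs to a RefSeq start inside the gene's span and holds none of the 4 motifs.

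Both windows with matches in the target group came with very different levels, 14.6 and 11.3 for Sp5 against 0.538 and 0.479 for Dkk1. Matches in other roles lay in windows of Wnt3, Wnt5b, Fzd7, Gsk3a, Tcf7l2 and Lef1. A match describes letters in a window, not a bound site. The windows of members were rich in G and C, with a median of 68.2% over 35 genes against 52.8% over all genes with a window. Among members it was 65.3% for the detected (17 genes) and 73.3% for the undetected (18 genes), and 57.8% for targets.

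Replicates agreed closely for abundant members and poorly for rare ones. At a mean FPKM of at least 1, 1 of 30 members differed by more than 1.5 times between the replicates, against 2.65% of all such genes. This was Tcf7l1, at 0.861 and 1.36, a log2 ratio of 0.66 for replicate 2 over replicate 1. Porcn lay just under that level and differed more, with a log2 ratio of 0.96. The median absolute log2 ratio was 0.06 for the 14 members between 5 and 20, against 0.09 for all genes of that range, and 0.25 for the 11 members between 1 and 5, against 0.17.

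Of the 10 targets, 4 of which were below 1 in both replicates, 9 had a lower FPKM in replicate 2 and Cdx2 a higher one. The cascade, with 7 of 9 lower, was similar, and of the genes for ligands and secretion 9 of 15 were lower. Over all 28592 genes 10041 were lower and 10541 higher. The 17 other genes known as beta-catenin targets, 14 of them below 1 in both replicates, had 7 lower and 9 higher. Of the 3 detected among them, T (12.9 and 11.9) and Tbx3 (13.3 and 12.4) were lower in replicate 2. Ccnd1 (55.3 and 56.5) was higher. At a mean of at least 1 the lower genes were 5 of 6 targets, 7 of 9 cascade genes, 2 of 3 for ligands and secretion, 3 of 8 receptors, 1 of 4 Tcf/Lef factors and co-activators, and 18 of 30 members in all, against 51.3% of all genes. The median log2 ratio of targets on the FPKM + 1 scale was -0.14, with Sp5 lowest (14.6 and 11.3, a ratio of -0.34 on that scale). The same median was -0.02 over all members, 0.03 over the 17 other targets and 0.00 over all genes, many of which were at 0. Earlier results of these data had shown a lower level of Wnt targets in replicate 2, so this contrast is a description only. Fibroblast genes stood higher in replicate 2, for example Col1a2 at 0.0101 and 0.917 and Col1a1 at 0.0136 and 0.552, named after their values were seen. Their part in these differences was not tested, and with 1 library on each side no test between libraries exists.

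**Figure D3:**
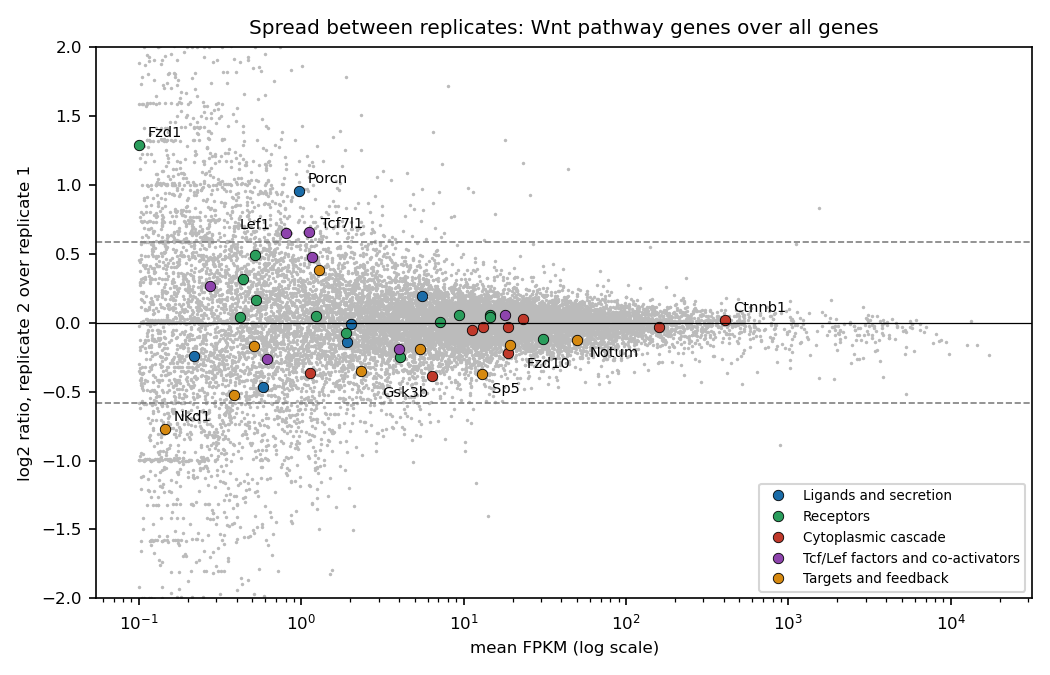
Log2 ratio of replicate 2 over replicate 1 against mean FPKM (log axis), for genes above 0 in both and at a mean of at least 0.1; grey points are 15465 genes, 219 lie beyond the axis of 2 log2 units, coloured points are 44 members and dashed lines mark 1.5-fold. Ctnnb1 sits near 0, Tcf7l1 above the upper line, and the orange targets mostly below 0.

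Further genes of the pathway were read from a list of 121 names, of which 119 were measured and 68 detected (57.1%, against 39.4% of all genes). The 68 include all 6 genes known as repressed by Tcf7l1, ES cell markers among them, which raise this share. Of the destruction complex partners 20 of 24 were detected, with a median of 6.71 and the poly-ADP-ribose polymerase Tnks2, which marks Axin for degradation, at 125 ± 1.20, the phosphatase subunits Ppp2r1a at 86.5 ± 2.15 and Ppp2ca at 57.8 ± 1.84 next. Nuclear cofactors had a median of 13.8 and 16 of 19 detected, and the highest were the co-repressors Ctbp2 at 84.2 ± 0.881, Aes at 61.9 ± 7.13 and Hdac1 at 59.6 ± 2.24. Of the junction partners 5 of 7 were detected.

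The list of antagonists and that of R-spondins and other receptors had shares near that of the whole table. Of 17 secreted or surface antagonists 6 were detected (35.3%, against 39.4% of all genes), with a median of 0.193, against 0.233 over all genes. Sfrp1, a decoy that binds Wnt proteins, was at 22.8 and 21.3, followed by Dkk3 at 2.99 ± 0.208 and Sfrp4 at 1.98 ± 0.310. Sfrp1 was thus above every Wnt gene in both libraries. Of 11 R-spondins and other receptors 4 were detected (36.4%), the receptors Ptk7 at 26.9 ± 0.689 and Ryk at 26.5 ± 0.720, whose values overlap, Ror2 at 3.07 ± 0.291, and Lrp4. The 4 R-spondins, ligands of Lgr4, had means between 0.00599 and 0.0712.

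The planar polarity arm, which shares Frizzled and Dishevelled but not beta-catenin, had 8 of 12 genes detected (66.7%, against 39.4% of all genes) and a median of 2.85. Vangl1 was at 58.8 ± 3.25, Scrib at 9.35 ± 0.241 and Vangl2 at 7.06 ± 0.301. Of 17 other genes known as beta-catenin targets in various tissues 3 were detected (17.6%, against 39.4% of all genes). These were the cyclin Ccnd1 at 55.9 ± 0.887, the pluripotency-linked factor Tbx3 at 12.9 ± 0.618 and the mesoderm factor T at 12.4 ± 0.733. The other 14 were below 1 in both replicates, and the list median was 0.262.

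**Figure D4:**
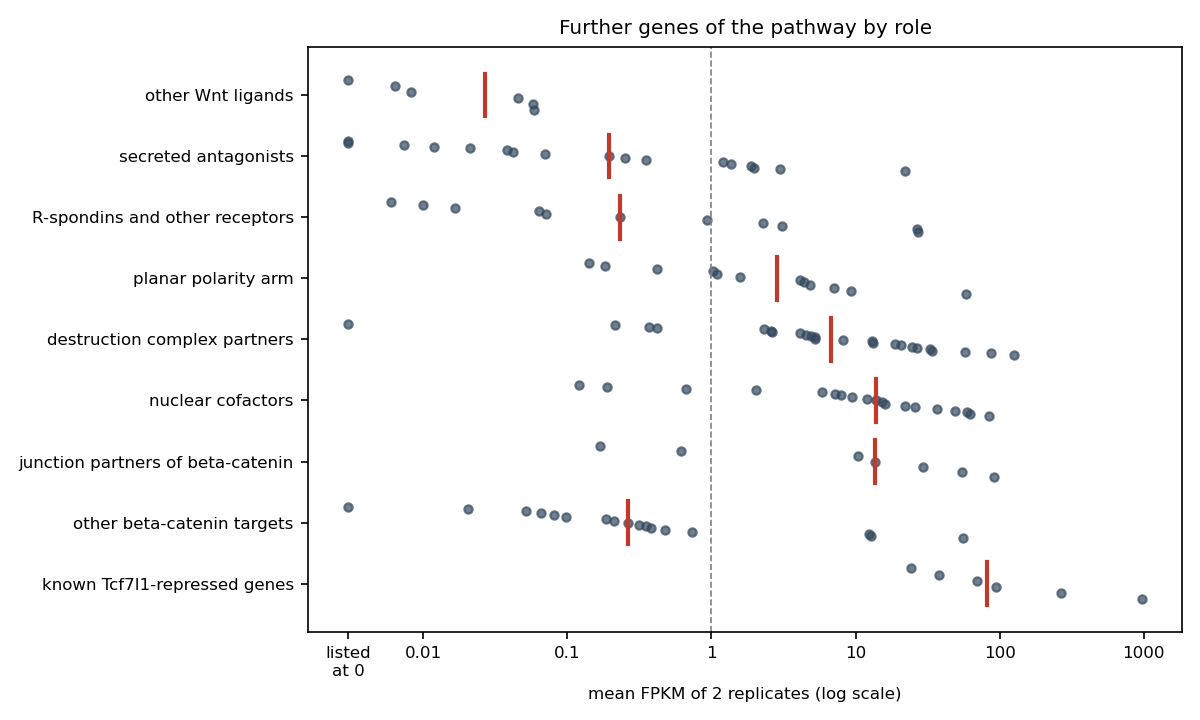
Mean FPKM of 2 replicates (log axis) for 119 further genes by role, the 6 genes known as repressed by Tcf7l1 included. Each point is a gene, red bars are medians and the dashed line is at 1. Medians lie above 1 for the destruction complex partners (6.71) and nuclear cofactors (13.8) and below it for other Wnt ligands (0.0267) and secreted antagonists (0.193).

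Of the 53 neighbour pairs in the order of all members by mean level, 17 did not overlap between replicates, and most of these were at the upper end. No such count was made for other genes, so the 17 describe only how this list is spaced. The members just above the limit of 1 were Cdx2 and Fzd2, and those just below or split by it were Bcl9, Dvl3, Tcf7l1, Porcn and Lef1.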

How the data were processed

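RNA from 2 replicates of 1 group was measured. The values are FPKM as the authors deposited them, in a single gene-level table with both replicates side by side. The submitters' processing notes name CASAVA, TopHat2 and Cufflinks, and the builds mm10 and GRCm38. Versions, annotation, filters, strand setting and any library scaling: not given in the sources used here. Cufflinks estimates abundance, so a value of 0 can be a failed estimate. Columns were assigned by sample description. Stable identifiers gave symbols to 28256 of the 28592 genes, and positions come from RefSeq on GRCm38.p6.

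Members and lists were chosen with earlier results of these data known. All members are named, with the 3 highest genes of each further list (6 other Wnt genes included), the 2 highest markers of each cell type, and members beyond 1.5-fold between replicates. Ratios between replicates used a pseudocount of 1 or, where stated, none. No test was run, since 1 group offers no contrast. Alternatives covered detection limits, pseudocounts, filters, rescaling to TPM, centring, motifs and leaving out each replicate. Procedures were tested on simulated data. Python 3.11.15, pandas 2.3.3, numpy 2.4.6 and matplotlib 3.10.9 were used.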

Additional observations from a re-analysis of the deposited data

How the results depend on the processing

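Of 54 members, 27 were detected at a limit of 1, and 43, 33 and 18 at limits of 0.1, 0.5 and 5. The count was 30 on the mean of replicates, 29 after rescaling to TPM, and between 28 and 30 when a replicate was left out. Without replicate 1 the Tcf/Lef factors and co-activators detected were 4 instead of 2, with Tcf7l1 and Bcl9 added. They were 4 on the mean of replicates, and 6 and 7 at limits of 0.5 and 0.1. The members' median of 1.20 was 2.18 when those under a mean of 0.1 were left out, and ranged from 1.17 to 1.36 on single replicates. The target group's median log2 ratio of -0.14 was -0.27 with a pseudocount of 0.01 and -0.11 after rescaling to TPM. It stayed below 0 in the 5 alternatives run. With 9 of 10 targets lower in replicate 2, the choice of pseudocount could not change that sign. The share of Wnt11 among Wnt ligands, 40.8%, was 43.0% without ligands under 0.1 and 39.5% over all 19 Wnt genes. With CTTTGAT alone 1 of 6 target promoters matched, and with the core CTTTG 2. Leaving out a replicate gave shares of 57.4% to 60.3% for Fzd10, 56.5% to 66.5% for Tcf7 and 39.3% to 42.4% for Wnt11. No paired analysis was possible because the series has 1 group. With FPKM alone, depth in reads is unknown, and no counting error could be given for levels near 0.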
